A study of Komagataella pastoris with 60 samples.

Results

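The *rps25*∆ strain lacks *RPS25*, the gene of a protein of the small ribosomal subunit, and its total mRNA was compared with that of the wild-type strain (wt) at 24, 48 and 72 h, with 2 replicates of each strain and time. These are 12 of the 60 libraries of the series, chosen by their labels as mRNA libraries of genotype rps25delta or wt. Both strains are *Pichia pastoris* GS115, a methanol-using yeast, carry the gene of a bacterial phytase (Phy) behind the methanol-induced *AOX1* promoter, were grown in methanol medium and were treated with cycloheximide, which holds ribosomes on mRNA, before extraction. The deletant was made by homologous recombination, its resistance marker was removed with Cre recombinase, and it was not compared with an independently made deletant. The other libraries are of the *rpl38*∆, *rpl9a*∆ and *rps7*∆ strains, which lack other ribosomal protein genes, and of mRNA taken from ribosome–nascent chain complexes (RNC-mRNA). The replicates are described as biological, and p-values measure the spread between them.

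Rps25, also called eS25, sits in the head of the small subunit. In *Saccharomyces cerevisiae* it is dispensable for growth and is needed for initiation on some viral internal ribosome entry sites, and its human counterpart has the same role. Ribosomal protein mRNAs are among the most abundant of a growing yeast and are usually made in step with each other, so that both subunits are supplied in equal amounts.

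The 6 wt libraries held 4906048 to 10784118 reads on host genes (median 8966194.5), and the 6 *rps25*∆ libraries 3096579 to 15476958 (median 4814648.5), the 48 h and 72 h libraries of *rps25*∆ being the shallower. Replicates of a group correlated across genes at 0.991 to 0.997 on the log scale and differed by more than counting noise. Over pairs of equal and different times, *rps25*∆ and wt libraries correlated at 0.9 to 0.93. Pairs within a strain, over all times, correlated at 0.919 to 0.997 in *rps25*∆ and at 0.972 to 0.997 in wt. Of the host genes and Phy, 5229 of 5320 passed the filter on low counts and were tested in edgeR's quasi-likelihood fit of all 30 mRNA libraries. A gene is called where its Benjamini-Hochberg adjusted p was below 0.05, and fold changes are log2 values of *rps25*∆ over wt. Comparisons with the other deletion strains are with the mean of *rpl38*∆, *rpl9a*∆ and *rps7*∆, unless a single strain is named. CPM are reads per 1000000 reads on the tested genes, Phy among them, after scaling by the trimmed mean of M-values (TMM). Values given as unscaled CPM are per 1000000 host reads. Lower expression in every cell and a smaller number of expressing cells cannot be told apart in such bulk RNA.

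The reads of *RPS25* itself matched the labels. They numbered 1165, 2537, 1306, 1443, 638 and 804 in the wt libraries (24 h to 72 h, replicates in turn) and 8, 4, 9, 6, 3 and 3 in the *rps25*∆ libraries. The strains did not overlap at any time, and *RPS25* had a log2 fold change of -7.62 (SE 0.274, adjusted p 1.5e-15 by edgeR's quasi-likelihood test). *RPS25* was left out of all lists below.

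The mRNA profile of *rps25*∆ differed broadly from that of wt. Averaged over the 3 times, 3520 genes were called (67.3% of those tested), of which 1812 were higher in *rps25*∆ and 1708 lower. Most of these differences were small: the quartiles of all log2 fold changes were -0.32 and 0.36, and 474 called genes had a log2 fold change beyond 1 in size, 251 of them higher and 223 lower. The calls at single times were 3048 at 24 h (58.3%, 1661 higher and 1387 lower), 2781 at 48 h (53.2%, 1307 and 1474) and 2640 at 72 h (50.5%, 1370 and 1270).

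These splits depend on how libraries are scaled. With library size alone in place of TMM the median of all genes shifted from 0.02 to 0.22, and the split of the average became 2652 higher and 1060 lower. At 24, 48 and 72 h it became 2736 and 766, 1879 and 920, and 1631 and 1041. The share of reads on the most abundant genes moved in the same libraries: the 10 most abundant genes of wt took 10.8% to 13.2% of host reads in wt and 6.23% to 8.5% in *rps25*∆, and the part of this in the shift was not tested. Directions are therefore given relative to the bulk of genes, and the counts of the ribosomal protein and chaperone lists are also given with library size alone.

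**Figure D1:**
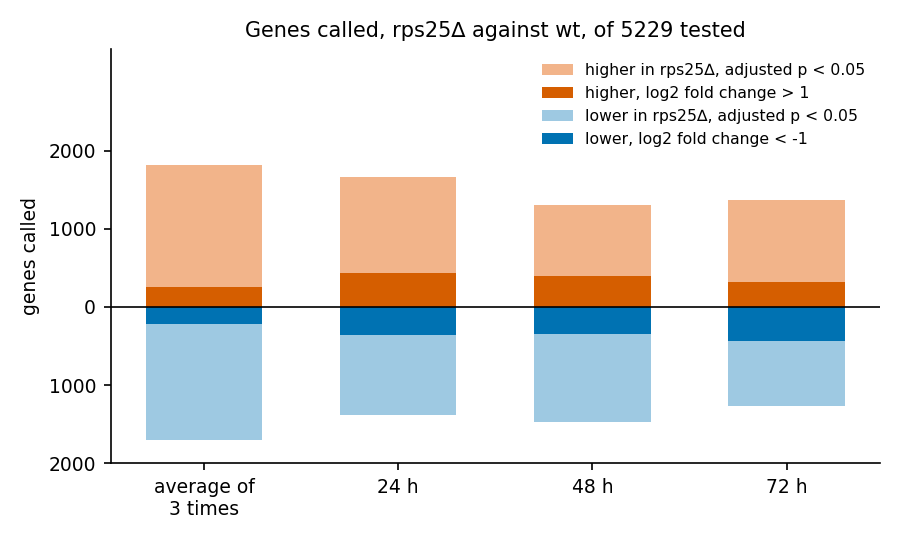
Number of genes called in *rps25*∆ against wt (edgeR, adjusted p below 0.05) for the average of the 3 times and for each time, with higher genes above and lower genes below 0 and the darker part for a log2 fold change beyond 1 in size. Higher and lower calls were of similar number with TMM scaling (1812 and 1708 in the average), whereas library size alone gave 2652 and 1060.

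The difference from wt was not the same at all times. In a test of the interaction of strain and time, 2818 genes (53.9%) changed their *rps25*∆ to wt difference between the times. Called genes were higher at all 3 times in 488 cases and lower at all 3 in 480, while 605 were called higher at 1 time and lower at another, 1592 were called at exactly 1 time and 807 at none. Across the 5229 genes, the log2 fold changes correlated at 0.607 between 24 and 48 h, at 0.461 between 24 and 72 h and at 0.68 between 48 and 72 h, comparisons that share no library. Genes are not independent replicates, and these values are a description.

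The lowest genes past the naming rule belonged to a run of 8 neighbouring IDs, numbers 4 to 11 of the block chr2-1, which had almost no reads in *rps25*∆. *RPS25* lies on another block, chr2-2. The 8 genes together had 2809, 3351, 3828, 4178, 2402 and 3165 reads in the wt libraries and 8, 4, 10, 4, 1 and 4 in the *rps25*∆ libraries. Every *rps25*∆ library was thus far below every wt library. In sum these were 31 reads against 19733, or 0.707 against 394 unscaled CPM, a 557-fold difference (95% exact counting interval 392 to 820, which covers counting error only). No gene of the run exceeded 5 reads in any of the 6 *rps25*∆ libraries, and 2 were at 0 in all of them. All 8 were called lower at 24, at 48 and at 72 h.

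Pipas_chr2-1_0011 and Pipas_chr2-1_0010, the 2 lowest genes past the naming rule, are part of this run. Pipas_chr2-1_0011 had 381, 557, 530, 630, 282 and 389 reads in wt and a single read in the 6 *rps25*∆ libraries together. Pipas_chr2-1_0010 had 74, 54, 108, 86, 66 and 95 reads in wt and 0 in all 6 *rps25*∆ libraries, so that it was at least 141-fold lower against a floor of 3 reads over the group. The IDs match no named gene in the reference table, and the roles of these genes are not given here.

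The run was read in the other strains. In the 18 mRNA libraries of *rpl38*∆, *rpl9a*∆ and *rps7*∆ the 8 genes took 231 to 498 unscaled CPM, and all 8 were called lower in *rps25*∆ than in the mean of these strains. They were also called lower in the RNC-mRNA of *rps25*∆, where no gene exceeded 4 reads in a library. On its lower side the edge of the run could not be placed, since IDs 2 and 3 had few reads in wt as well (at most 12 and 3). On its upper side, ID 12 had 246, 303, 259, 247, 201 and 249 reads in wt and 29, 18, 14, 2, 6 and 8 in *rps25*∆ (log2 fold change -4.28, adjusted p 1.5e-14), ID 13 was nearly unread in both strains, and ID 14 was lower by much less (-0.86, adjusted p 1.3e-09). ID 16 was lower than wt (-2.02, adjusted p 8.2e-08) but not called against the other deletion strains (-0.29, adjusted p 0.23). These IDs were singled out after their values were seen.

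**Figure D2:**
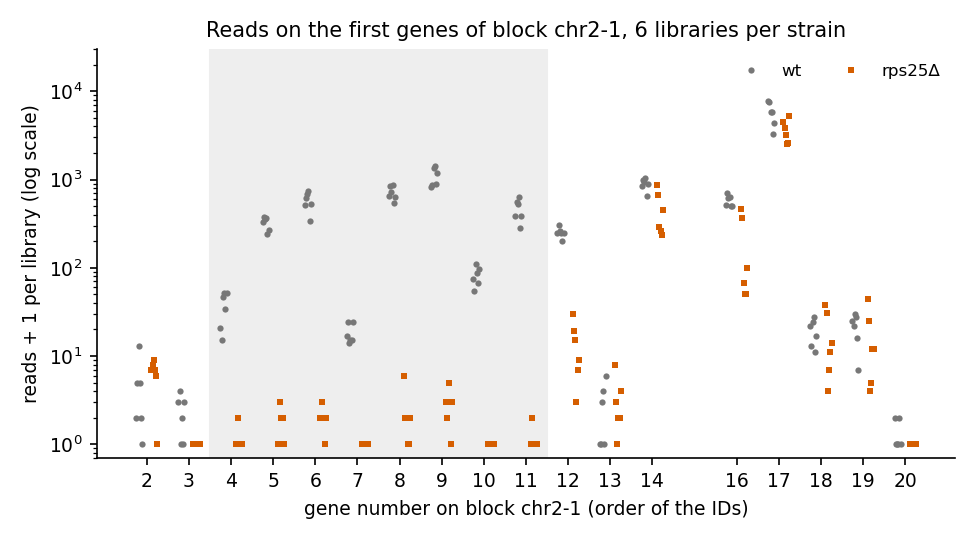
Reads plus 1 (log scale) on the first genes of block chr2-1 in the order of their IDs, 1 point per library, with the run of IDs 4 to 11 shaded. Within the shaded run the *rps25*∆ libraries stayed at 5 reads or fewer per gene, whereas each of the 6 wt libraries had at least 13.

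With at most 10 reads in all 6 libraries of a strain and more in all 6 of the other as the criterion, 10 genes were absent from *rps25*∆. They were the 8 of the run, *RPS25* and 1 weakly read gene of chr3. The same criterion found 1 gene absent from wt. With limits of 5 and 20 reads, chosen after seeing the data, the counts were 8 and 2, and 7 and 2. The 7 blocks of at least 100 genes, which hold 5027 of the genes tested, had median log2 fold changes between -0.01 and 0.04, so that no large block moved as a whole. Among the small blocks, the 33 genes of c034 had a median of -0.44, with 22 called lower and 5 higher (background 32.7% and 34.7%).

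At the other end stood both genes of the small block c157, the highest genes past the naming rule. Pipas_c157_0001 had 16, 12, 11, 13, 15 and 4 reads in wt and 6620, 5093, 1970, 1711, 2141 and 4446 in *rps25*∆, a log2 fold change of 8.33 (SE 0.146, adjusted p 8.7e-21). Pipas_c157_0002 had 1 or 2 reads in every wt library and 211 to 785 in the *rps25*∆ libraries (8.24, SE 0.266, adjusted p 3.1e-16). The strains did not overlap for either gene. These genes were read in every deletion strain: Pipas_c157_0001 had 753 to 7613 reads and Pipas_c157_0002 91 to 5052 in the libraries of *rpl38*∆, *rpl9a*∆ and *rps7*∆. Against the mean of those strains Pipas_c157_0001 was 0.22 higher in *rps25*∆ (adjusted p 0.013) and Pipas_c157_0002 lower (-0.83, adjusted p 6.3e-07). The near absence of reads was thus on the wt side here and on the *rps25*∆ side in the run of chr2-1.

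The genes numbered next to *RPS25* on block chr2-2 were examined because flanking regions were used for the deletion. Of the 20 IDs within 10 of it, 3 were called higher and 9 lower (background 34.7% and 32.7%), with a median of -0.32. The gene next after *RPS25* was read at 66.9 to 80.5 CPM in wt and at 113 to 170 in *rps25*∆ (0.95, adjusted p 3.6e-10), and the gene just before it was 0.43 higher (adjusted p 7.6e-05). The seventh gene after it was lowest, at 135 to 148 CPM in wt and 15.2 to 22 in *rps25*∆ (-2.89, SE 0.0803, adjusted p 2.6e-17). Against the other deletion strains, in which *RPS25* is intact, 14 of the 20 IDs were called (background 65.4%). The gene next after *RPS25* did not pass that test (0.01, adjusted p 0.92), and the seventh was lower by less (-0.79, adjusted p 8.7e-09). The third gene after *RPS25* was lower than wt (-1.08, adjusted p 1.2e-13) and nearly as much lower than those strains (-0.94, adjusted p 1.9e-13). It is not stated whether reads were counted by strand.

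Ribosomal protein mRNAs moved unevenly. Of the 85 ribosomal protein genes other than *RPS25*, 38 were called higher in *rps25*∆ (44.7%, against 34.7% of all genes), 18 lower (21.2%, against 32.7%) and 29 were not called, with a median of 0.16 beside 0.02 for all genes. Library size alone gave 54 higher and 9 lower. The 36 genes of the small subunit (17 higher, 7 lower, median 0.22) and the 49 of the large subunit (21 higher, 11 lower, median 0.13) made up these counts.

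The balance shifted with time. At 24 h, 22 ribosomal protein genes were higher and 5 lower (background 31.8% and 26.5%; median 0.20), at 48 h 14 were higher and 25 lower (background 25.0% and 28.2%; median -0.17), and at 72 h 41 were higher and 1 lower (background 26.2% and 24.3%; median 0.49). With library size alone the splits were 48 and 1 at 24 h and 52 and 1 at 72 h. At 48 h it gave 21 and 21 (median 0.04), so that the split and the median at that time rest on the scaling. The share of host reads on the 85 genes was 3.4% and 3.87% in wt and 4.57% and 4.86% in *rps25*∆ at 24 h. At 48 h it was 2.8% and 2.89% against 2.58% and 2.41%, and at 72 h 2.55% and 2.43% against 3.78% and 3.15%. The replicates did not overlap between strains at any time, *rps25*∆ being the higher at 24 and 72 h and the lower at 48 h. The interaction of strain and time was called for 36 of the 85 genes (42.4%, beside 53.9% of all genes).

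Among single genes, *RPS28B*, which encodes a small protein of the small-subunit head, was highest. It was read at 21.9, 27.2, 15.4, 13.5, 15.8 and 22 CPM in wt and at 42.2, 54.4, 39.2, 55.5, 56.6 and 32.3 CPM in *rps25*∆, a 2.44-fold difference (log2 1.29, SE 0.184, adjusted p 3.1e-06 by edgeR). All 6 *rps25*∆ libraries lay above all 6 wt libraries. The same held for *RPS27B*, of a zinc-binding small-subunit protein, at 97.0, 121, 55.6, 53.3, 52.7 and 64.8 CPM in wt and 134, 140, 138, 139, 198 and 151 in *rps25*∆ (1.08, SE 0.133, adjusted p 4.4e-07). Its difference was 0.33 at 24 h (adjusted p 0.21), 1.35 at 48 h and 1.56 at 72 h (adjusted p 6.5e-05 and 1.6e-05). *RPL37*, a zinc-binding protein of the large subunit, stood at a median of 27.8 CPM in wt (23.8 to 71.2) and 79 in *rps25*∆ (60.8 to 110), with a log2 fold change of 1.24 (SE 0.178, adjusted p 3.4e-06) and an overlap of the strains through the wt library of 24 h replicate 2.

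The naming rule, which asks for a call in the average and for both *rps25*∆ libraries on 1 side of both wt libraries at every time, was passed by 20 higher and 5 lower ribosomal protein genes. Such a separation at all 3 times was seen in 19.7% of all genes upward and 16.4% downward. After the 3 above, the highest were *RPS27A* (0.96), *RPL33* (0.91), *RPS29* (0.90), *RPL43* (0.84), *RPS10* (0.82), *RPL34* (0.79) and *RPL36* (0.79), with adjusted p between 8.9e-06 and 0.0017. *RPS29* and *RPS10*, like *RPS28B*, encode proteins of the small-subunit head.

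*RPP0*, the stalk base protein that carries the acidic P1 and P2 proteins and takes part in factor binding, was the lowest of the 85. It was read at 846, 808, 702, 747, 583 and 485 CPM in wt and at 468, 461, 251, 239, 359 and 319 CPM in *rps25*∆, 2.02-fold lower (log2 -1.02, SE 0.0988, adjusted p 1.3e-08). No *rps25*∆ library reached a wt library. The difference was -0.83 at 24 h, -1.56 at 48 h and -0.66 at 72 h, each called (adjusted p 0.00027, 2.7e-07 and 0.0031). The other lower genes past the rule were *RPL7* (-0.55, adjusted p 0.00017), *RPL5* (-0.51, adjusted p 0.00089), *RPS1* (-0.49, adjusted p 0.00047) and *RPL10* (-0.21, adjusted p 0.036). *RPL10*, whose protein joins the large subunit late in its maturation, lost its call when any of 6 single libraries was left out.

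**Figure D3:**
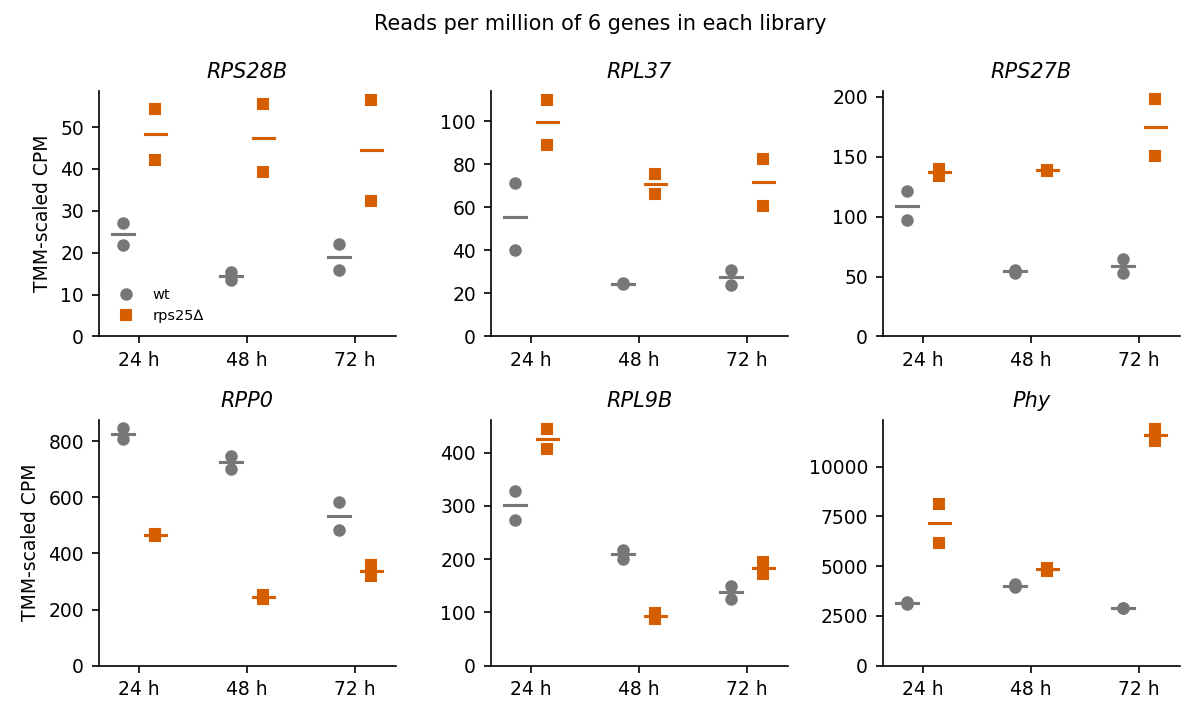
TMM-scaled CPM of 6 genes in each library by time, with a dash at the mean of 2 replicates, for wt (circles) and *rps25*∆ (squares). *RPS28B* and *RPS27B* were higher and *RPP0* lower in every *rps25*∆ library than in every wt library, whereas *RPL9B* was above wt at 24 and 72 h and below it at 48 h.

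By place in the ribosome, the 15 other genes of the small-subunit head, among which Rps25 sits, had 7 members called higher and 2 lower (46.7% and 13.3%, beside 44.7% and 21.2% of all ribosomal protein genes and 34.7% and 32.7% of all genes) with a median of 0.24. The higher ones included *RPS28A* and *RPS28B*, *RPS29*, *RPS10*, *RPS20* (0.30) and *RPS18* (0.25), and the lower ones were *RPS3* (-0.54, adjusted p 0.0019), the protein at the mRNA entry channel, and *ASC1* (-0.22, adjusted p 0.037), the yeast counterpart of RACK1. Head genes thus included both the highest ribosomal protein gene and members below wt.

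The 8 genes around the exit tunnel of the large subunit, through which the nascent chain leaves, were all called, 6 higher and 2 lower (background 34.7% and 32.7%). *RPL39* (0.80), *RPL31* (0.78), *RPL35* (0.71), *RPL26* (0.63), *RPL25* (0.52) and *RPL19* (0.18) were higher, and *RPL4* (-0.61, adjusted p 5.5e-05) and *RPL17* (-0.27, adjusted p 0.027) lower. *RPL31* was read at a median of 144 CPM in wt (138 to 303) and 325 in *rps25*∆ (202 to 453). *RPL4* was read at a median of 788 CPM in wt (575 to 1000) and 548 in *rps25*∆ (371 to 648), below wt at 24 h (-0.57) and 48 h (-1.08) and not called at 72 h (-0.18, adjusted p 0.46). The calls of *RPL19* and *RPL17* were lost without any 1 of 10 and of 4 libraries, respectively.

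Of the 5 stalk genes, *RPP0* and *RPL12* (-0.26, adjusted p 0.047) were lower and the acidic proteins *RPP1A* (0.18), *RPP1B* (-0.09) and *RPP2* (0.15) were not called in the average. The call of *RPL12* was lost without any 1 of 8 libraries. *RPP1B* was lower at 24 h (-0.37, adjusted p 0.021), and *RPP1A* was higher at 72 h (0.69, adjusted p 0.0017). The partners of 5S rRNA moved apart, *RPL5* being lower (-0.51) and *RPL11* higher (0.34, adjusted p 0.012), although both proteins join the ribosome in 1 particle in *S. cerevisiae*.

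Of the 9 paralog pairs, 4 had 1 member called in the average and the other not. *RPL9A* was higher (0.49, adjusted p 4.2e-05) and *RPL9B* was not called in the average (-0.08, adjusted p 0.7). *RPL9B* was read at 200 and 218 CPM in wt and 98.6 and 87 in *rps25*∆ at 48 h (-1.17, adjusted p 0.0048), whereas at 24 h it stood at 274 and 328 against 407 and 444 CPM (0.50, adjusted p 0.16). *RPS22A* was higher (0.66) and *RPS22B* was not called (-0.14, adjusted p 0.52), the latter with at most 29 CPM in any library. *RPS6A* was higher (0.31, adjusted p 0.041, lost without any 1 of 11 libraries) and *RPS6B* not called (-0.18, adjusted p 0.23). With library size alone *RPL9B*, *RPS22B* and *RPS6B* turned to values above 0 (0.12, 0.06 and 0.02).

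No pair had members called in opposite directions in the average. *RPS27A* and *RPS27B* (0.96 and 1.08) and *RPS28A* and *RPS28B* (0.69 and 1.29) were higher. *RPL8A* (-0.37, adjusted p 0.027, lost without any 1 of 3 libraries) was lower beside *RPL8B* (-0.25, adjusted p 0.058), and neither member was called for *RPL2A* and *RPL2B* (0.09 and -0.23), *RPL6A* and *RPL6B* (-0.17 and 0.08) and *RPP1A* and *RPP1B*. The difference between members of a pair was not tested, and the counting of reads shared by near-identical paralogs is not stated, so that the values of single members are uncertain.

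The genes called higher and lower differed in length. The deposited gene length was 1 base short of a multiple of 3 for 95% of genes, as for a coding length. It was listed as shorter than 100 bp for 12 ribosomal protein genes of ordinary read number (1 bp for *RPL43*), which were left out of this description after seeing the data, so that 73 remained. Of the 12 genes of up to 300 bp, 11 were called higher and 0 lower (median 0.74), and of the 42 of 300 to 600 bp 21 were higher and 3 lower (median 0.26). Of the 16 of 600 to 900 bp, 2 were higher and 9 lower (median -0.24), and the 3 longest were lower (median -0.61). Of other genes, 47.6% were called higher and 11.2% lower up to 300 bp, 58.5% and 15.1% at 300 to 600 bp, 40.1% and 24.3% at 600 to 900 bp and 32.3% and 34.3% at 900 to 1200 bp, so that the share of higher calls at 300 to 600 bp was no larger among ribosomal protein genes. *RPS28B*, *RPL37* and *RPS27B* are listed at 203, 247 and 248 bp, and *RPP0*, *RPL4* and *RPL3* (-0.59) at 938, 1019 and 1166 bp. Library size alone left 11 higher of the 12 shortest and, of the 19 over 600 bp, 4 higher and 8 lower in place of 2 and 12.

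This order was seen at each time. Spearman's rho of fold change with listed length over the 73 genes was -0.731 at 24 h, -0.836 at 48 h and -0.452 at 72 h, and -0.743 in the average, as a description across genes. At 48 h the medians ran from 0.72 in the shortest class to -1.13 in the longest. Each of the 6 *rps25*∆ libraries was also set against the mean of the wt libraries of its time, which libraries of the same time share. In each, the median of the 54 genes up to 600 bp (0.0 to 0.76) was above that of the 19 longer ones (-0.85 to 0.02). The other genes of the genome had a weaker order, with rho of -0.28 over 4958 genes and medians of 0.48 up to 300 bp, 0.37 for 300 to 600 bp, 0.09 for 600 to 900 bp and between -0.11 and -0.01 beyond. In RNC-mRNA rho of the ribosomal protein genes was -0.573, against the mean of the other 3 deletion strains it was -0.468, and against *rps7*∆ it was 0.0282. Short genes carry fewer reads, and the part of library preparation in this order was not tested.

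**Figure D4:**
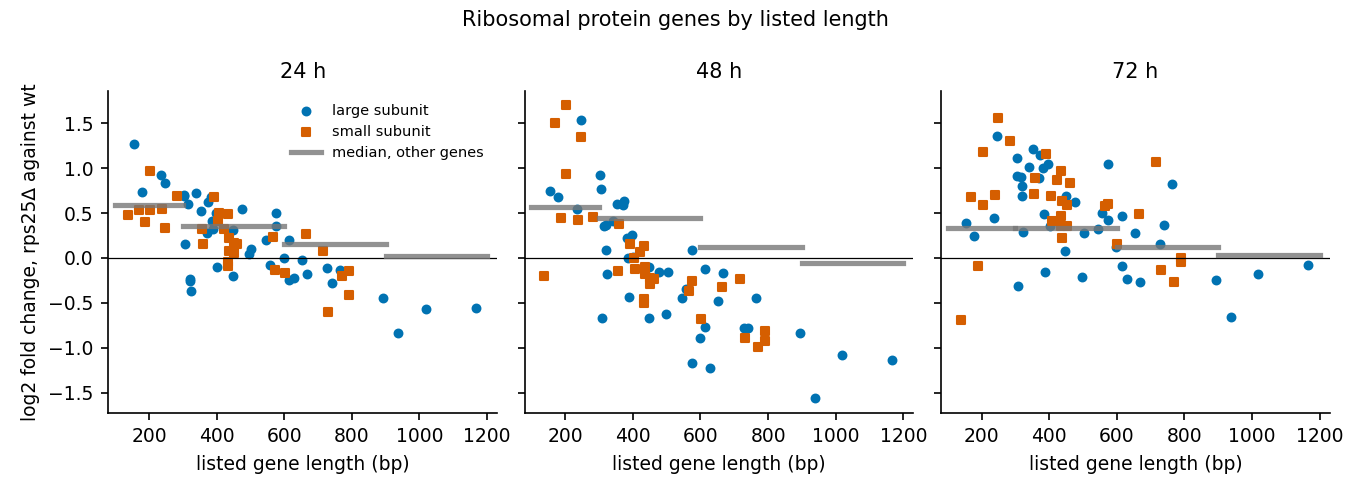
Log2 fold change of 73 ribosomal protein genes against their listed length at 24, 48 and 72 h, with grey bars at the median of other genes in 4 length classes. Short genes lay above long ones at each time, most steeply at 48 h (Spearman's rho -0.836), and with library size alone the median of all genes stands at 0.39, 0.18 and 0.12 in place of 0.08, -0.03 and 0.04, with the points shifted alike.

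Compared directly with the mean of the other deletion strains, *rps25*∆ had higher ribosomal protein mRNAs throughout. Differences from *rpl38*∆ and *rpl9a*∆ singly were not tested. Against the mean of *rpl38*∆, *rpl9a*∆ and *rps7*∆, 3419 genes were called (65.4%, 1695 higher and 1724 lower, or 2074 and 1308 with library size alone). Without *RPL38*, *RPL9A* and *RPS7*, which are deleted in those strains, 82 of 82 ribosomal protein genes were called higher (background 32.4%), by 0.21 to 2.05 with a median of 1.17, and all remained higher with library size alone and with DESeq2's size factors. The median of all genes was 0.00. *RPS28A* (2.05), *RPS10* (1.86) and *RPL26* (1.75) lay highest and *RPL10* (0.21) lowest. *RPP0*, below wt, was above the mean of the other deletion strains (0.73).

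*rps7*∆ is the other strain without a small-subunit protein. Against it, 3574 genes were called (68.3%, 1809 higher and 1765 lower) and 84 of 85 ribosomal protein genes were higher (background 34.6%), with a median of 1.52. That count includes *RPS7*, which *rps7*∆ lacks. The remaining gene, *RPL22*, stood at 0.12 (adjusted p 0.37). With library size alone the median of all genes in this comparison was -0.28, with 984 called higher and 2922 lower, and 83 ribosomal protein genes were higher and 0 lower.

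**Figure D5:**
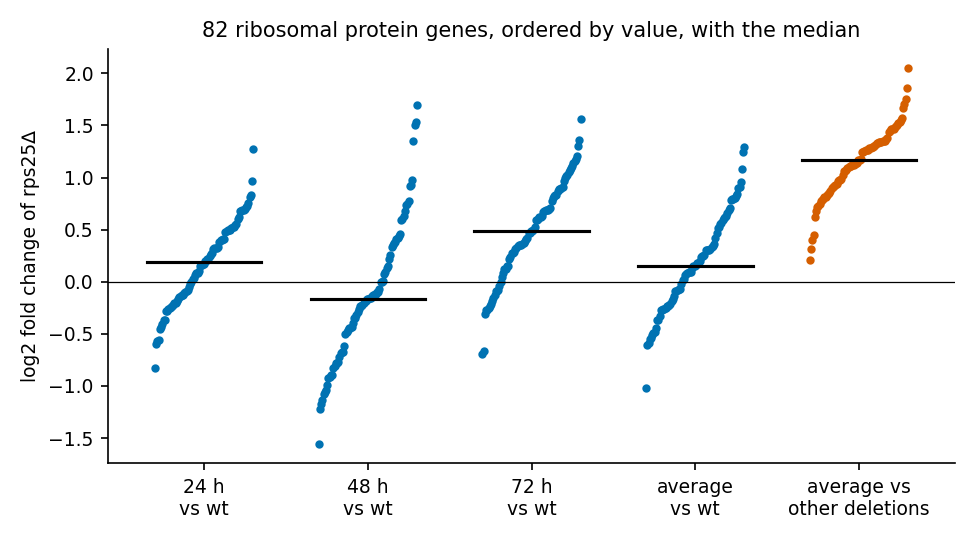
Log2 fold change of 82 ribosomal protein genes of *rps25*∆, ordered by value within each comparison, against wt at each time and in the average (blue) and against the mean of the other deletion strains (orange), with the median as a bar. Values against wt spread on both sides of 0, with a median below 0 at 48 h that becomes positive with library size alone, whereas all 82 lay between 0.21 and 2.05 against the other deletion strains.

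Large differences from wt were often also differences from the other deletion strains. Of the 251 genes with a log2 fold change above 1 against wt, 170 were called higher against the other 3 strains as well, 22 were called lower and 59 not called. Of the 223 genes below -1, 148 were called lower, 33 higher and 42 not called. Over all genes tested, 65.4% were called against the other 3 strains, 32.4% higher and 33.0% lower. The *rps25*∆ libraries are common to both comparisons, so these counts are side by side values and no independent evidence.

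In RNC-mRNA, 2303 of 5209 genes were called against wt (44.2%), and of the 85 ribosomal protein genes 8 were higher and 6 lower (background 23.8% and 20.4%), with a median of -0.13 beside 0.07 for all genes. *RPS29* (1.59), *RPL29* (1.23), *RPS27A* (1.10), *RPL39* (1.02) and *RPS28B* (1.02) were among the higher, and *RPL22* (-1.15, adjusted p 0.00078), *RPS22B* (-0.75, adjusted p 0.0014) and *RPP0* (-0.70, adjusted p 0.046) were among the lower. Whether the strain difference itself differed between mRNA and RNC-mRNA was not tested here.

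Chaperone mRNAs were more often lower than higher. Of 55 chaperone IDs, 11 were called higher and 31 lower (56.4%, beside 32.7% of all genes) in the average, with a median of -0.24. This background was not matched for listed length. Of genes other than ribosomal protein genes, 27.1% were called higher and 41.1% lower at 1200 to 1800 bp. At 1800 to 2400 bp these shares were 25.7% and 44.2%. With library size alone the counts were 18 higher and 17 lower, so that the direction against wt holds relative to the bulk of genes and not per read sequenced. At 24 h 7 were higher and 27 lower (background 31.8% and 26.5%, median -0.35), at 48 h 9 and 25 (25.0% and 28.2%, median -0.27), and at 72 h 10 and 7 (26.2% and 24.3%, median 0.04). Library size alone made these 14 and 17, 13 and 16, and 17 and 6. The 55 IDs together took 4.02% to 5.36% of host reads in wt and 3.79% to 4.76% in *rps25*∆, ranges that overlap.

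Pipas_chr4_0552 was the lowest chaperone and an abundant one, read at 6680, 5950, 3570, 3270, 4440 and 3960 CPM in wt and 3080, 3090, 1760, 1340, 2950 and 2860 CPM in *rps25*∆ (-0.90, SE 0.135, adjusted p 5.8e-06). Pipas_chr3_0731 followed (-0.89, SE 0.116, adjusted p 9.4e-07). Pipas_chr2-1_0194 was highest, at 12.9 to 19.4 CPM in wt and 23.3 to 31.9 in *rps25*∆ without overlap (0.87, SE 0.106, adjusted p 3.6e-07), followed by Pipas_chr4_0438 (0.62). Against the other deletion strains 32 chaperone IDs were higher and 4 lower (background 32.4% and 33.0%, median 0.23), and against *rps7*∆ 34 and 8 (background 34.6% and 33.8%). Library size alone made these 40 and 2, and 19 and 19.

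Phy, the introduced gene, was read in a table of its own and fitted as 1 more gene. It stood at 3100, 3180, 4080, 3940, 2900 and 2890 CPM in wt and at 8120, 6180, 4770, 4920, 11900 and 11300 CPM in *rps25*∆. Every *rps25*∆ library was above every wt library. The average log2 fold change was 1.15 (SE 0.122, adjusted p 4.4e-08 by edgeR), and an exact two-sided permutation of the strain labels within times gave p 0.00926, the smallest that its 216 arrangements allow. Both p-values take libraries of different times as independent, and would be too small if the times share cultures. The difference was 1.19 at 24 h, 0.27 at 48 h (adjusted p 0.28) and 2.0 at 72 h, and it changed with time (interaction adjusted p 0.00027). Against the mean of the other deletion strains Phy did not pass edgeR's test (-0.05, adjusted p 0.69). That mean includes *rps7*∆, against which Phy was 2.32 higher, so it averages differences of opposite sign. Differences of Phy from *rpl38*∆ and *rpl9a*∆ singly were not tested.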

How the data were processed

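PolyA+ mRNA of wt and *rps25*∆ was sequenced by the authors on an Illumina instrument, and reads passing the Illumina filters were kept. bcl2fastq 2.17 is named in the submitters' processing notes. The tools and strand setting of alignment and counting, and the build, were not given in the sources used here. Per library, the authors deposited a raw count for each of 5319 host genes, with a listed gene length and an RPKM that was not used. The deposited table of Phy holds its count of reads per library, and its other columns were not used. The number of per-sample columns of no sample was 0.

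Phy was added to the host counts. A gene needed over 10 reads in 2 or more libraries to enter the test with edgeR 4.0.16 (limma 3.58.1, R 4.3.3), as a quasi-likelihood fit of 30 mRNA libraries scaled by TMM, in which each of 15 groups had 1 mean. Benjamini-Hochberg adjustment ran over every gene in the test, and calls needed an adjusted p below 0.05. RNC-mRNA was fitted likewise. The common biological coefficient of variation was 10.8%. Lists were described by counts and medians without a set test. The fit was tested on simulated counts. Alternatives were other scalings, DESeq2 1.42.0, filters, the libraries in the fit, a replicate block, a fold criterion and leaving out libraries. Python 3.11.15 with numpy 2.4.6, pandas 2.3.3, scipy 1.17.1 and matplotlib 3.10.9 made the tables and figures.

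Ribosomal protein names and the chaperone IDs come from the gene lists of the study. Of the 5319 IDs 0 matched the reference table (assembly ASM170810v1, 5305 genes), so lists by other gene names were not run. Genes called in the average with both *rps25*∆ libraries on 1 side of both wt libraries at all 3 times could be named: ribosomal protein genes up to 10 each way, chaperones 5 each way, of which 2 each way are printed by ID, and 2 each way of the rest. All paralog pairs and all members of lists of up to 8 genes were named as well, and further ribosomal protein genes were picked after their values were seen. Members and lists were chosen with earlier results of these data known.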

Additional observations from a re-analysis of the deposited data

Results flagged for a closer look

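The difference between *rps25*∆ and wt changed with time for 2818 genes in edgeR's interaction test over 24, 48 and 72 h (Benjamini-Hochberg adjusted p below 0.05), which is 53.9% of the genes tested. Phy was among them (adjusted p 0.00027), with its smallest difference at 48 h.

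Of the 85 ribosomal protein genes, 36 changed with time in the same edgeR test (42.4%, beside 53.9% of all genes). Of the 41 that were named, 18 changed with time. Part of the 41 were chosen for lying on the same side of wt at every time, so their share is not comparable with that of all genes. Among paralog pairs the adjusted p was 0.0028 for *RPL9A* and 0.0058 for *RPL9B*, 0.0047 for *RPS6A* and 0.0061 for *RPS6B*, 0.0062 for *RPL2A* and 0.006 for *RPL2B*, 0.011 for *RPL8A* and 0.022 for *RPL8B*, 0.0068 for *RPP1A* and 0.018 for *RPP1B*, and 0.0062 for *RPS27B*. Each member of these pairs except *RPS27B*, *RPP1A* and *RPP1B* was lower relative to wt at 48 h than at 24 h or 72 h. Among the others the adjusted p was 0.0052 for *RPL7*, 0.008 for *RPP0*, 0.024 for *RPL4*, 0.028 for *RPS1*, 0.03 for *RPL17*, 0.032 for *RPL11* and 0.038 for *RPL19*, and each of these 7 had its lowest log2 fold change at 48 h.

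Of all 55 chaperone IDs, 34 changed with time (61.8%, beside 53.9% of all genes). Of the 10 taken by the naming rule, 5 changed with time. That rule asks for the same side of wt at every time, so this share is not comparable with that of all genes. The adjusted p was 0.0041 for Pipas_chr4_0438 and 0.015 for Pipas_chr3_0731, and for the other 3 it was 0.0041, 0.025 and 0.033.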

How the results depend on the processing

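The counts of called genes, ribosomal protein genes, chaperones and neighbours of *RPS25* and the Phy value stayed within 1.5 times of their value under DESeq2's size factors, library size alone, DESeq2, both filters, the fits of fewer libraries and the block, whereas requiring a log2 fold change beyond 1 as well left 474 genes in the average, 791 at 24 h, 742 at 48 h, 752 at 72 h, 534 against *rps7*∆ and 249 against the other deletion strains. The largest median of the big blocks in size was 0.04, and became -0.05 with DESeq2's size factors, 0.24 with library size alone, -0.05 with DESeq2, 0.06 with more than 10 reads in every library, and -0.03 with only the 12 libraries. With library size alone *RPP1B* (0.11), *RPL6A* (0.03), *RPL9B* (0.12), *RPS22B* (0.06) and *RPS6B* (0.02), none called, turned positive, and *RPS22B* ranged from -0.30 to 0.02 when single libraries were left out, turning without *rps25*∆ 72 h replicate 2. The cause was not tested.

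Leaving out each of the 12 libraries in turn gave 3346 to 3423 genes in the average, 2411 to 3036 at 24 h, 2214 to 2764 at 48 h, 2081 to 2626 at 72 h, 2407 to 2576 for the change with time, 3386 to 3558 against *rps7*∆, 3134 to 3396 against the other deletion strains, 46 to 53 ribosomal protein genes, 38 to 42 chaperones, 12 to 14 neighbours of *RPS25*, a Phy log2 fold change of 1.08 to 1.22 and a largest block median of -0.03 to 0.05. The lone library of a group is then assumed to vary like the others.

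The main fit did not pair libraries of equal replicate number. The correlation of the replicate differences between strains was weakly positive at 24 h (0.187) and near 0 at 48 and 72 h (-0.00682 and -0.0255). With the replicate number as a block, 3535 genes were called in the average, 3062 at 24 h, 2779 at 48 h, 2655 at 72 h, 2848 for the change with time, 3576 against *rps7*∆, 3434 against the other deletion strains and 2254 in RNC-mRNA, with 53 ribosomal protein genes, 42 chaperones and 12 neighbours, and Phy stayed at 1.15.

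The 2 replicates per time limit the single-time tests, and genes with few reads, such as *RPS28A* and *RPS22B*, are the least precise.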
